A study of Mus musculus with 4 samples.

Results

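The genes described here are 10 core genes of transforming growth factor β (TGF-β) signalling: the ligand genes Tgfb1, Tgfb2 and Tgfb3, the receptor genes Tgfbr1 and Tgfbr2, the signal carriers Smad2, Smad3 and Smad4, and the inhibitors Smad7 and Ski. They were chosen by name from knowledge of the pathway, with earlier results of these data known. They are 10 of 35427 genes and 45 of 115898 transcripts that could be matched to the annotation, and all 10 were among the 14907 genes with enough reads to be called measured. RNA was recovered from the hippocampus of C57BL/6J mice, 4 months old, by pulling down a tagged ribosomal protein (P2RY12CreER crossed to the Rpl22HA RiboTag line). P2RY12CreER directs the tag to cells that express P2ry12, in the brain chiefly microglia. Control mice were fear conditioned and left to sleep for 6 h, and the sleep-deprived group was fear conditioned and kept awake for 6 h. Both groups carried the same tag and the same training, each sample was a pool of 2 mice, and the labels call the samples technical replicates.

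TGF-β ligands are secreted in a latent form, held by a propeptide and by partner proteins, and are set free by integrins and proteases. The active ligand binds the type II receptor, which phosphorylates the type I receptor; this kinase phosphorylates SMAD2 and SMAD3, which join SMAD4 and enter the nucleus. SMAD7 blocks the receptor step and SKI represses transcription at SMAD-bound genes. In the brain, TGF-β1 is known as a signal that microglia make and need for their mature gene programme, while TGF-β2 and TGF-β3 are made mainly by neurons and astrocytes.

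The sequences in this and the next paragraph show what tells apart the transcripts to which reads were assigned, as all reads of both receptor genes were placed on 1 transcript each and those of Ski mostly on a non-coding one. Ski-203 and Ski-201 enter the same downstream exon from different first exons. Capitals mark the 40 bases before the shared exon: for Ski-203 its whole first exon (chr4:155188257-155188296, minus strand, GRCm38), and for Ski-201 the coding end of a first exon of 1041 bases (capitals at chr4:155221552-155221591). The lower case bases are the start of the shared exon.
Ski-203: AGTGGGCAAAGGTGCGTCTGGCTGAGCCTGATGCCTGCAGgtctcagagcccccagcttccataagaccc
Ski-201: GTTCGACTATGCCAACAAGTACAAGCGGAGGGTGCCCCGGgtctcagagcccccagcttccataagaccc

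Tgfbr2-202, the only Tgfbr2 transcript with reads, holds a coding exon of 75 bases (25 codons, chr9:116158271-116158345, minus strand) that Tgfbr2-201 lacks. Tgfbr1-201, the only Tgfbr1 transcript with reads, holds 12 coding bases (4 codons, chr4:47393247-47393258, plus strand) that Tgfbr1-202 lacks. Capitals mark the added bases. In both genes the transcripts also differ in the length of their last exon, so the files do not tell whether reads covered the added bases.
Tgfbr2-202: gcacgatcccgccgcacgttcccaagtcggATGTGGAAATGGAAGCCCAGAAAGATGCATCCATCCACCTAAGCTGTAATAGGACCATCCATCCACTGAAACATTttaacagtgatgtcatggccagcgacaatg
Tgfbr2-201: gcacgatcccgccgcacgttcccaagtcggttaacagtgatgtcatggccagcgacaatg
Tgfbr1-201: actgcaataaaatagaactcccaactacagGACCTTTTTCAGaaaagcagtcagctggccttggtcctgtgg
Tgfbr1-202: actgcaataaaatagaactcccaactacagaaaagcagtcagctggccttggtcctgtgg

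Promoters are shown for the ligand genes whose ratios lay furthest apart, Tgfb1 and Tgfb2, and for the receptor gene Tgfbr2. Each is the 250 bases before the RefSeq start on GRCm38.p6, at chr7:25686752-25687001 (plus strand), chr1:186705990-186706239 (minus strand) and chr9:116175364-116175613 (minus strand). Capitals mark CAGAC, a short sequence that SMAD proteins can bind, searched on both strands (GTCTG on the other). It was found at 0 places in the Tgfb1 window, 2 in that of Tgfb2 and 1 in that of Tgfbr2, and 42.2% of 32817 promoter windows of this length hold at least 1. Of the member windows not shown, those of Smad3, Ski and 1 Tgfbr1 start held 0, and that of another Tgfbr1 start held 1. A match is a description of these letters only.
Tgfb1: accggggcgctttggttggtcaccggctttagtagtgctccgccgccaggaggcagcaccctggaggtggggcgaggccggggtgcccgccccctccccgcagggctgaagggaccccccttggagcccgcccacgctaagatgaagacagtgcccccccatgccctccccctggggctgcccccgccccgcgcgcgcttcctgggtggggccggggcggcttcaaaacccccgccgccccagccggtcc
Tgfb2: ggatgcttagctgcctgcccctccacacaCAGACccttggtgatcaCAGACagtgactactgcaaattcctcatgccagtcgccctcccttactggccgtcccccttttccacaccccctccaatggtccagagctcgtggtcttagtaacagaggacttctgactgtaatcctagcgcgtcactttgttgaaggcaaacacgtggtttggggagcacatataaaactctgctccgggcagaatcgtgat
Tgfbr2: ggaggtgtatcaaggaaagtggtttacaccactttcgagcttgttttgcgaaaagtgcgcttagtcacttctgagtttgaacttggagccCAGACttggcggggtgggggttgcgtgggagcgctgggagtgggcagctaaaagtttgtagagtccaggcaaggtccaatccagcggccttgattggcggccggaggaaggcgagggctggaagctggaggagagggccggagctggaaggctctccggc

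Each group had 2 files, of 14431647 to 14877011 estimated reads. Chi-square per degree of freedom between the files of a group was 0.335 in control and 0.207 in sleep-deprived mice, where separate draws of reads from 1 library give about 1. The files of a group thus agreed within sampling noise, their mean was counted as 1 sample (n = 1 per group), and no p-value can be given. For the 10 genes the files of a group differed by 0 to 31 reads. Where the files of the groups are said below not to overlap, this compares 1 library with 1. It is no replication and adds nothing to the ratio. Of 19 microglial markers 15 were called higher after sleep deprivation and 0 lower, and their summed level was 210.4 CPM in control and 656 CPM after sleep deprivation, a ratio of 3.12. None of the 19 was at 0. Of 8 markers of border-associated macrophages 5 were measured and 3 called higher, with sums of 7.44 and 12.2 CPM, and of 12 mural and fibroblast markers 1 was called higher and 3 lower, with sums of 236 and 167 CPM. Mitochondrial transcripts took 3.19% and 3.22% of reads in the control files and 1.52% in both sleep-deprived files. The neuron markers summed to 3785 and 3221 CPM, those of astrocytes to 2401 and 1501 CPM, those of oligodendrocytes to 3643 and 2270 CPM, and those of endothelial cells to 188 and 183 CPM, so that RNA of other cells was abundant in both libraries. The 10 genes are not restricted to microglia, more or fewer cells of a type cannot be told apart from more or less RNA per cell, and the part of the marker shift in the values below was not tested.

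Values are CPM, read counts brought to a common library size, scaled by TMM, which removes a shift common to most genes. A ratio is the sleep-deprived over the control library, with a 95% interval that covers counting error only. Calling a gene higher or lower required a change of 2-fold or more and an interval without 1; "above" and "below" mean only that the interval excluded 1. Of the 10 genes 0 were called higher and 0 lower, where 4.24% of all measured genes were called higher and 5.65% lower (9.89% in either direction). At 1.5-fold, Tgfb1 and Tgfbr2 would be called higher and Tgfb2 and Ski lower, beside 12.5% and 13.6% of all measured genes. The interval lay above 1 for 5 genes (Tgfb1, Tgfb3, Tgfbr1, Tgfbr2 and Smad4; 31.4% of all measured genes) and below 1 for 4 (Tgfb2, Smad2, Smad3 and Ski; 30.5%), and it included 1 for Smad7. With total reads as the scale the interval of Tgfb3 included 1 (1.13, 0.990 to 1.28). The median log2 ratio of the 10 genes was 0.11, beside −0.01 over all measured genes. For Tgfb2, Smad2 and Ski the direction depended on how transcripts were counted, as given with each gene.

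**Figure D1:**
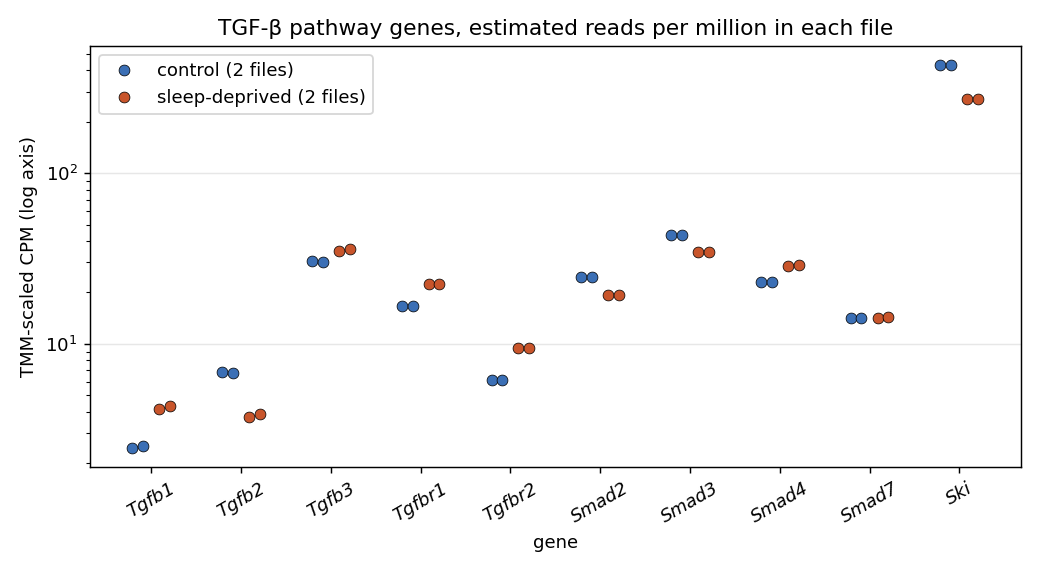
TMM-scaled CPM (log axis) of the 10 genes in each of the 4 files, blue for control and orange for sleep-deprived. The 2 files of a group nearly coincide for every gene, and Ski stands at 271 to 430.3 CPM while the others lie at or under 43.52 CPM.

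Among the ligands, by read counts, Tgfb1 was above control and Tgfb2 below it. Tgfb1 (chr7:25687002-25705077, plus strand), the main TGF-β ligand gene of microglia, was at 2.45 and 2.53 CPM in the control files and at 4.17 and 4.32 CPM in the sleep-deprived files. Both sleep-deprived files lay over both control files, and the ratio was 1.68 (1.10 to 2.59). It rests on 37 and 38 control reads and 59 and 61 sleep-deprived reads. Nearly all were on the coding transcript Tgfb1-201, with under 2 estimated reads a file on a transcript annotated for nonsense-mediated decay in the sleep-deprived files. The 19 microglial markers had a median ratio of 2.85, and the part of their shift in the Tgfb1 ratio was not tested.

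Tgfb2 (chr1:186622792-186705989, minus strand) was at 6.83 and 6.72 CPM in control and at 3.74 and 3.89 CPM in the sleep-deprived files. The sleep-deprived files lay under the control files, with a ratio of 0.563 (0.397 to 0.791). This direction held for read counts and not per length: the ratio was 1.007 (0.710 to 1.41) with the transcript length offset, and the summed TPM (a read count divided by transcript length and brought to a common total) was 2.23 in control and 2.62 after sleep deprivation. In each sleep-deprived file 1 read on Tgfb2-203, a non-coding transcript of 363 bases, gave 1.17 or 1.18 TPM, while 52 and 54 reads on the coding Tgfb2-201, of 5116 bases, gave 1.41 and 1.48 TPM. Control files had 0 reads on Tgfb2-203, and Tgfb2-201 alone went from 2.23 to 1.44 TPM, a TPM ratio of 0.647. A single read on a short transcript therefore made up 44.8% of the sleep-deprived TPM of the gene.

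Tgfb3 (chr12:86056745-86079041, minus strand) had 1 transcript in the files and the highest ligand level. It was at 30.6 and 30.01 CPM in control and at 34.9 and 35.8 CPM in the sleep-deprived files, a ratio of 1.17 (1.03 to 1.33). The files of the groups did not overlap. Of its exon bases 257 are shared with Gm48008 and 163 with Gm37804, and 124 exon bases of Tgfb2 are shared with Gm29491, all on the opposite strand. The sources used here do not say whether the authors counted by strand.

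Both receptor genes were above control. Tgfbr1 (chr4:47353222-47414931, plus strand) encodes the type I receptor kinase and was at 16.59 and 16.64 CPM in control and 22.3 and 22.4 CPM in the sleep-deprived files, a ratio of 1.35 (1.14 to 1.59). Tgfbr2 (chr9:116084293-116175360, minus strand) encodes the type II receptor that binds the ligand first, and was at 6.10 and 6.12 CPM and at 9.46 and 9.42 CPM, which gives a ratio of 1.55 (1.18 to 2.04). In both genes every sleep-deprived file lay over every control file, where the files of a group count as 1 library. All reads of each gene were on the transcript printed above with its added coding bases, so the length offset left the ratios at 1.35 and 1.56. Tgfbr1-203, Tgfbr1-204, Tgfbr1-205 and the shorter forms Tgfbr1-202 and Tgfbr2-201 were listed at 0 in every file.

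**Figure D2:**
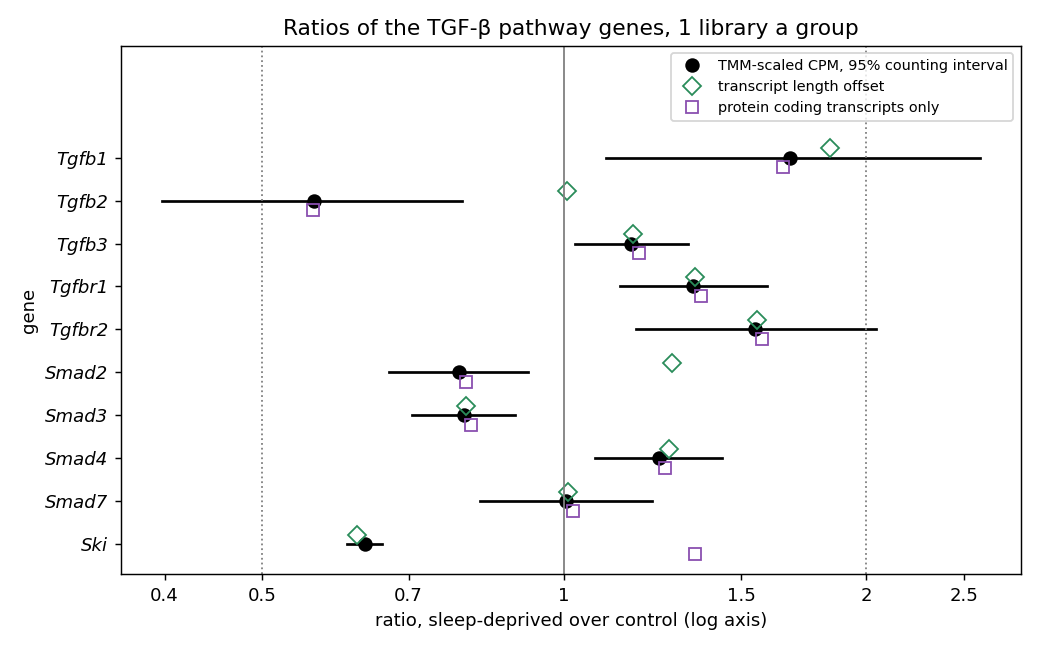
Ratio of the sleep-deprived over the control library for each gene (log axis), with filled points and bars for TMM-scaled CPM and its 95% counting interval. Open diamonds use the transcript length offset and open squares only protein coding transcripts; Tgfb2 and Smad2 move across 1 with the first, and Ski with the second.

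By read counts the receptor-activated Smad2 and Smad3 were below control and the shared Smad4 was above it. For Smad2 the direction turned with the length offset, as given in the next paragraph. Smad3 (chr9:63646767-63757994, minus strand), a transcription factor that binds DNA itself, was at 43.46 and 43.52 CPM in control and at 34.46 and 34.49 CPM in the sleep-deprived files, a ratio of 0.794 (0.705 to 0.894). All its reads were on Smad3-201, and no scaling brought the ratio to 1 or over; by summed TPM it was 0.927. Smad4 (chr18:73639009-73703780, minus strand), the common partner of the other Smads, was at 23.0 and 23.1 CPM and at 28.5 and 28.8 CPM, which gives a ratio of 1.24 (1.07 to 1.44). Groups of files did not overlap for either gene, and the 2 genes lay on opposite sides of 1.

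Smad2 (chr18:76241580-76310963, plus strand) was at 24.7 and 24.6 CPM in control and at 19.28 and 19.33 CPM in the sleep-deprived files, a ratio of 0.785 (0.669 to 0.921), but it was 1.28 (1.09 to 1.502) with the transcript length offset and 1.49 by summed TPM. The authors' estimates placed the gene's reads on transcripts of unequal length in different shares. Smad2-205, of 8089 bases, held 94.6% (91.8 to 96.7, exact binomial 95% interval) of the reads in control and 72.9% (67.2 to 78.1) after sleep deprivation. Smad2-201, of 2410 bases, was listed at 0 of 370 control reads (exact upper bound 0.992%) and at 35.2 and 44.7 reads in the sleep-deprived files. With the control library set to 3 reads its ratio was 14.2, and its interval without that floor ran from 11.0 with no upper end. Smad2-203, of 1305 bases, had 19.4 and 20.7 reads in control and 39.4 and 28.9 in the sleep-deprived files. This last form lacks a coding exon of 90 bases (chr18:76286860-76286949); the SMAD2 protein without it is known to bind DNA directly, which the full-length protein does poorly. Its share was 5.42% (3.33 to 8.23) in control and 12.5% (8.78 to 17.0) after sleep deprivation, a difference of 7.10 percentage points. These forms share most of their sequence: 2020 of the 2410 bases of Smad2-201 and 1190 of the 1305 of Smad2-203 are also in Smad2-205, and 16.3% and 8.94% of their stretches of 31 bases are in no other Smad2 transcript. Of the 2 sleep-deprived files, at the same gene total of 273 reads, the one with more reads on Smad2-203 had fewer on Smad2-201. Whether reads covered the skipped junction of Smad2-203 is not told by the files.

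The inhibitor genes differed. Smad7 (chr18:75367529-75395935, plus strand), a feedback inhibitor that TGF-β itself induces, was at 14.3 and 14.2 CPM in control and 14.1 and 14.4 CPM in the sleep-deprived files. The files of the groups overlapped and the ratio was 1.004 (0.825 to 1.22), and it lay between 0.970 with total reads and 1.17 by summed TPM, on the other side of 1 in 3 of 11 alternative settings. A difference was not detectable at this depth. Its only transcript with reads, Smad7-201, had 213 and 215 reads in control and 200 and 204 in the sleep-deprived files.

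Ski (chr4:155154075-155222592, minus strand) was at 430.3 and 429.5 CPM in control and at 271 and 273 CPM in the sleep-deprived files, a ratio of 0.633 (0.608 to 0.659), but it was 1.35 (1.21 to 1.51) when only transcripts annotated as protein coding were counted. Most reads were on Ski-203, annotated as a processed transcript without a coding sequence. It had 5906 and 5836 reads in control and 3085 and 3113 in the sleep-deprived files, which is 90.7% (89.995 to 91.4) and 80.5% (79.2 to 81.8) of the gene's reads. The coding Ski-201 had 353 and 378 reads in control and 756 and 742 in the sleep-deprived files, a ratio of 2.18 (1.92 to 2.48) and a share that went from 5.65% to 19.5%. The other coding form, Ski-202, had 227 and 241 reads in control and was listed at 0 in both sleep-deprived files (exact upper bound 0.0958%). With 3 reads as the floor its ratio was 0.0136, and its interval without the floor was 0 to 0.0169. All 5309 bases of Ski-202 lie within Ski-201, and 0.549% of its stretches of 31 bases are in no other Ski transcript, so the values of these 2 coding forms cannot be told apart and are best read together, at 600 reads in control and 749 after sleep deprivation. Of the 4521 bases of Ski-203, 4481 are also in Ski-201, and only 0.868% of its stretches of 31 bases are found in no other Ski transcript. The authors' estimates thus divided reads over almost the same sequence, apart from the 40 bases printed above and the 1041-base first exon that Ski-203 lacks. Reads of the coding and the non-coding form cannot be told apart where the forms share bases.

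**Figure D3:**
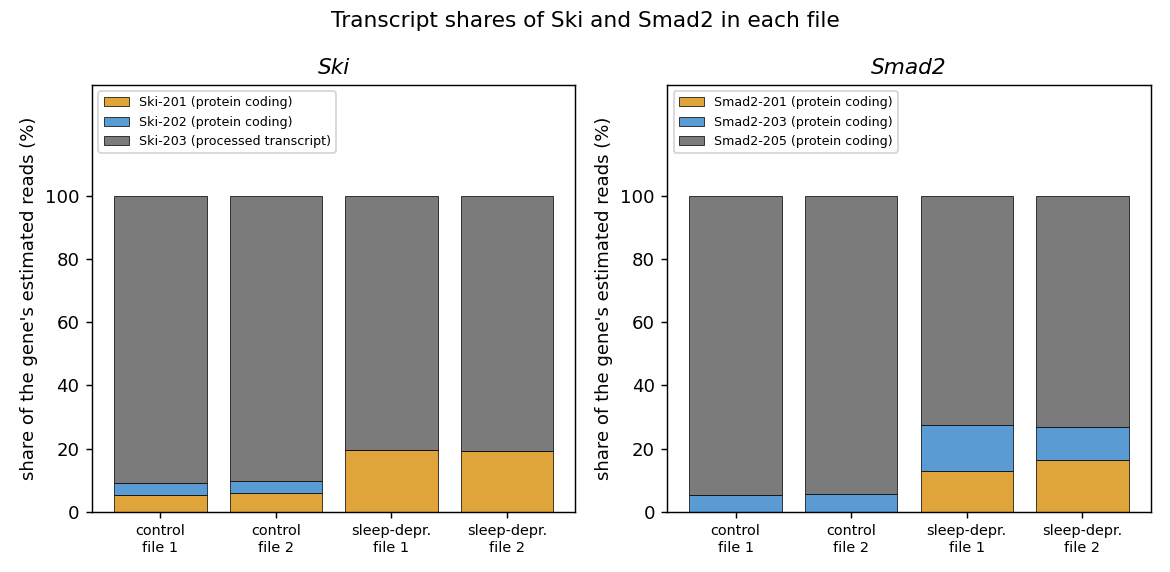
Share of the estimated reads of Ski and Smad2 (percent) on each transcript with reads, 1 bar per file. Ski-201 holds 5.65% of Ski reads in control and 19.5% after sleep deprivation, and Smad2-205 goes from 94.6% to 72.9%. Ski-202, whose values cannot be told apart from those of Ski-201, holds 3.62% in control and 0% after sleep deprivation.

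Over all 45 transcripts of the 10 genes, 17 had reads in at least 1 file and 28 had none. The 4 transcripts annotated as retained introns, of Tgfb1 and Tgfb2, had 0 reads in every file, while transcripts of that class took 10.6% of all reads in control and 13.3% after sleep deprivation. A share difference of at least 10 percentage points with intervals apart was met by transcripts of 2 of the 9 genes with several transcripts, Ski and Smad2 (Tgfb3 has 1). Among all genes with several transcripts and at least 20 reads in each library, 39.4% met it, so such shifts were common in these libraries.

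Levels of different genes are compared per length, by TPM, with counting intervals. In control the order was Ski (159 TPM), Tgfb3 (15.5), Smad3 (14.4), Smad4 (11.8), Smad2 (6.79), Smad7 (5.66), Tgfbr1 (4.84), Tgfb2 (2.23), Tgfb1 (2.08) and Tgfbr2 (1.25). Intervals of neighbours overlapped for Tgfb3 with Smad3, Smad2 with Smad7, Smad7 with Tgfbr1, Tgfb2 with Tgfb1, and Tgfb1 with Tgfbr2. Without Ski-203 the remaining Ski transcripts were at 7.38 and 4.93 TPM in control, within the range of the other genes. In the sleep-deprived library Ski was at 115 TPM, Tgfb3 at 21.1, Smad4 at 17.5, Smad3 at 13.4, Smad2 at 10.1, Tgfbr1 at 7.61, Smad7 at 6.65, Tgfb1 at 4.51, Tgfb2 at 2.62 and Tgfbr2 at 2.26. Intervals of neighbours overlapped there for Tgfbr1 with Smad7, for Smad7 with Tgfb1 and for Tgfb2 with Tgfbr2. Compared with control, 3 pairs of neighbours stood in the other order: Smad4 over Smad3 and Tgfb1 over Tgfb2, with intervals apart after sleep deprivation, and Tgfbr1 over Smad7, with intervals that overlapped. For Tgfb1 (3.44 to 5.80 TPM) and Tgfb2 (1.97 to 3.42 TPM) the gap was narrow, and the level of Tgfb2 includes the single read described above. The intervals apply counting error on all reads of a gene, as if each read gave equal TPM. That of Tgfb2 is therefore too narrow, and intervals apart do not settle this order. On the main coding transcripts alone, Tgfb1-201 was at 4.02 TPM and Tgfb2-201 at 1.44 TPM after sleep deprivation. TPM ratios run high as a whole, with a median of 1.16 over all measured genes (0.22 on the log2 scale). The TPM ratio of 2.17 for Tgfb1 (1.94 for Tgfb1-201 alone) or 0.725 for Ski is to be read against that median.

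**Figure D4:**
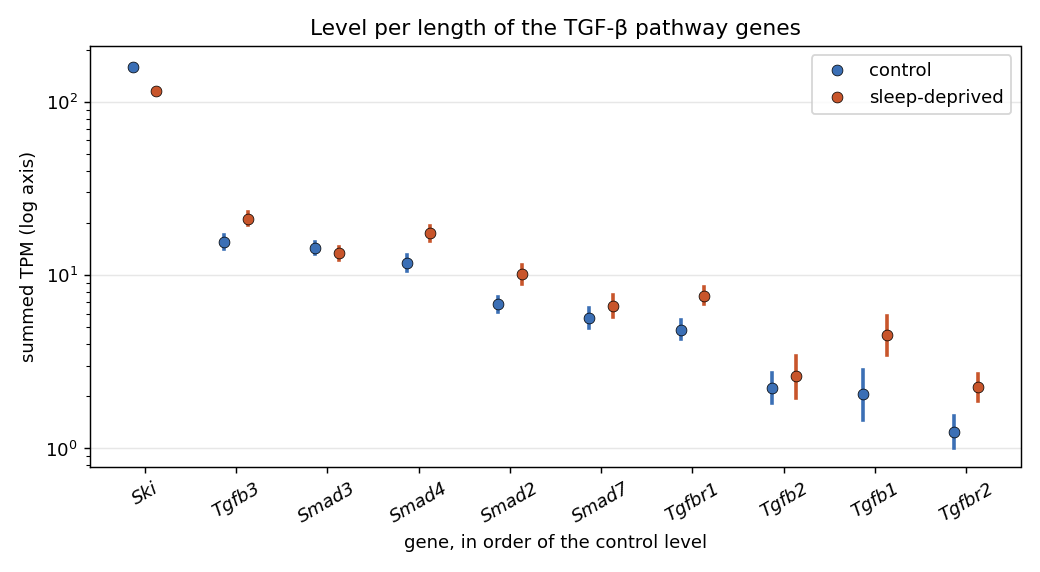
Summed TPM (log axis) of each gene in the control (blue) and sleep-deprived (orange) library, in order of the control level. Bars are 95% counting intervals from all reads of the gene, as if each read gave equal TPM. Ski is at 159 and 115 TPM, and Tgfbr2 is lowest at 1.25 and 2.26 TPM.

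The pathway around the 10 genes was described with 92 other genes in 7 lists by role, of which 82 were measured. Of these 1 was called higher and 4 lower, beside 4.24% and 5.65% of all measured genes, and the median log2 ratio was −0.05. The interval lay above 1 for 27, below 1 for 27 and included 1 for 28. The list of 16 genes for ligand latency and activation had 15 measured, 1 higher and 1 lower, with a median log2 ratio of 0.22. Thbs1, which encodes thrombospondin-1, an activator of latent TGF-β, was at 2.19 and 2.26 CPM in control and 5.58 and 5.59 CPM in the sleep-deprived files (ratio 2.47, 1.63 to 3.81); 208 of its exon bases overlap Gm29233 on the opposite strand. Lrrc32, which encodes GARP, a cell surface anchor of latent TGF-β, was at 2.79 and 2.73 CPM and at 0.565 and 0.567 CPM, on 8 reads a file (ratio 0.203, 0.0822 to 0.437). Bmp1, a protease gene and the most abundant of the list per length, had a ratio of 1.18 (1.15 to 1.20), and one of 0.929 when only coding transcripts were counted.

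Other genes of the list were named after their values were seen. Nrros encodes the protein that anchors latent TGF-β1 on microglia, and was at 4.58 and 4.53 CPM in control and 8.12 and 8.002 CPM in the sleep-deprived files (ratio 1.78, 1.31 to 2.45), above control but under 2-fold. Itgb8 encodes a chain of the integrin that frees TGF-β from that anchor, and was at 40.2 and 40.1 CPM and at 25.1 and 24.7 CPM (ratio 0.620, 0.542 to 0.708). Furin, whose protease cuts the ligand precursor, stood at 1.58 times control (1.40 to 1.77). The 10 astrocyte markers had a median ratio of 0.625 and 3 of them were called lower, and the part of either marker shift in these ratios was not tested.

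The co-receptors and other receptors of the superfamily had 11 of 11 measured, 0 called and a median log2 ratio of −0.08. The activin receptor gene Acvr1b, the most abundant per length, had a ratio of 1.31 (1.19 to 1.44). It was the only gene of this list with an interval above 1, while the interval lay below 1 for 5 and included 1 for 5. Other Smads and adaptors had 9 of 10 measured, 0 called and a median of 0.23, and Strap, whose product holds SMAD7 at the receptor, had a ratio of 0.664 (0.601 to 0.732). Inhibitors and turnover genes had 13 of 13 measured, 0 called and a median of −0.10, with Fkbp1a, the highest by TPM averaged over all files, which encodes a protein that keeps the type I receptor silent, at 0.862 (0.790 to 0.941), and at 0.971 with the length offset. Coactivators and the SMAD-independent arm had 8 of 8 measured, 0 called and a median of −0.04. The p38 kinase gene Mapk14 of that list had a ratio of 0.978 (0.927 to 1.03), and one of 1.06 with the length offset.

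Common target genes of TGF-β had 11 of 13 measured, 0 higher and 1 lower, with a median log2 ratio of −0.23. The interval lay above 1 for 2 of them, below 1 for 4 and included 1 for 5. Ccn1, which encodes a matricellular protein, was at 1.86 and 1.80 CPM in control and 0.635 and 0.708 CPM in the sleep-deprived files, on 9 and 10 reads (ratio 0.380, 0.165 to 0.806). Tsc22d1, a TGF-β-stimulated gene and the most abundant of the list per length, had a ratio of 0.647 (0.607 to 0.689). Other ligands and secreted antagonists of the superfamily had 15 of 21 measured, 0 higher and 2 lower, with a median of −0.27. Inhbb, which encodes a chain of activin B, had a ratio of 0.426 (0.254 to 0.694), and Nog, which encodes the BMP antagonist noggin, one of 0.255 (0.124 to 0.486), on 12 and 13 sleep-deprived reads. Chrd, another BMP antagonist gene and the most abundant per length, had a ratio of 1.37 (1.29 to 1.45); 239 of its exon bases overlap Thpo on the opposite strand.

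**Figure D5:**
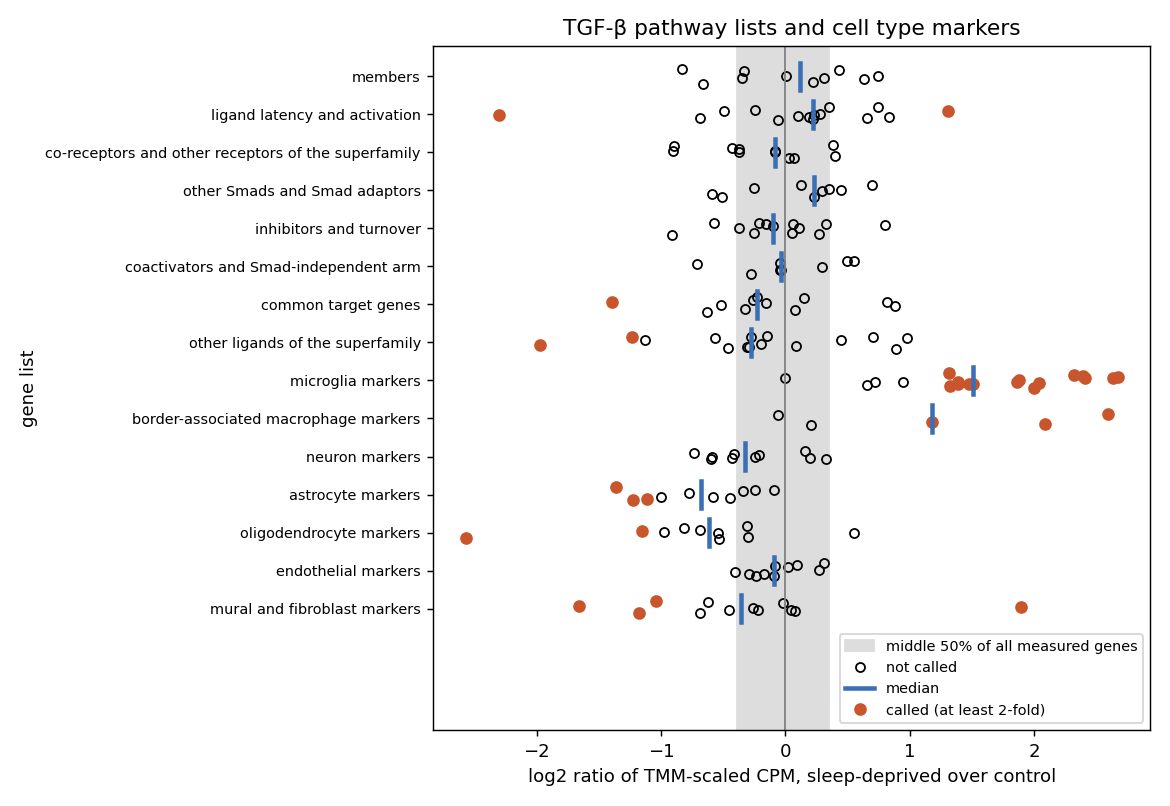
Log2 ratio of TMM-scaled CPM (sleep-deprived over control) of each measured gene in the pathway lists and in 7 cell type marker lists; filled points were called, blue bars are list medians and the grey band is the middle 50% of all measured genes. The medians of the 10 genes and of the 7 pathway lists lie within the grey band, and that of the microglial markers lies at 1.51. Those of border-associated macrophage (1.18), astrocyte (−0.68) and oligodendrocyte (−0.61) markers also lie outside the band.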

How the data were processed

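RNA was measured in 4 samples, 2 per group, with groups taken from the sample titles; the treatment field names sleep deprivation for all 4. The RNA was obtained by ribosome pulldown with polyA enrichment, per the labels' protocols. The submitters' processing notes name Salmon, DESeq2 and mm10, and the sources used here give no version, read layout or annotation for them. Per the file headers the authors deposited estimated counts per transcript, unnormalized, and TPM, with transcript length and effective length. Transcripts were matched without version to GENCODE M21 (GRCm38), 115898 of 116546 (99.4%), and summed per gene; unmatched transcripts held 0.339% to 0.366% of reads.

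The 2 files of a group agreed within sampling noise (genes with a mean of at least 20 reads) and were averaged to 1 library, rounded to whole counts. TMM factors and filterByExpr (minimum count 10) came from edgeR 4.0.16 in R 4.3.3. The edgeR quasi-likelihood test, planned for files that differ by more than sampling noise, was not run, as no residual degrees of freedom were left. Ratio intervals are exact conditional (Clopper-Pearson) 95% intervals; a library under 3 reads was set to 3 for the ratio. Reads without molecular identifiers are not independent molecules, so the intervals say nothing on differences between mice, only on counting error. The transcript length offset divides counts by the TPM-weighted mean effective length of the gene. Alternatives were other scalings (DESeq2 1.42.0 size factors, upper quartile, total reads), the length offset, coding transcripts only, each file left out, 1.5-fold calls and no filter; summed TPM was added after seeing the data. Named are the 10 genes, other pathway genes that were called, and the measured gene of each list with the highest TPM averaged over all files, unless said otherwise (for inhibitors and turnover this is Fkbp1a, while in control alone Usp15 was higher, at 99.1 against 95.5 TPM). The members and lists were chosen with earlier results of these data known. Promoter sequences are from RefSeq (GRCm38.p6), and transcript sequences from GENCODE M21. Promoter windows were kept for 6 of the 10 genes. Windows on chr18, where Smad2, Smad4 and Smad7 lie, were left out by rule, and Tgfb3 had no window.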

Additional observations from a re-analysis of the deposited data

How the results depend on the processing

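With 1 library per group, differences between mice could not be assessed, and depth limits Tgfb1 (37 to 61 reads a file) most. No paired analysis was possible because the files of a group agreed within sampling noise and left 1 library per group. With DESeq2 size factors, upper-quartile scaling, total reads, the length offset, coding transcripts only, no filter, and each file left out, 0 of the 10 genes were called in either direction. By summed TPM, which has no interval, Tgfb1 was at 2.17. Under 2 estimated reads a file on Tgfb1-202, of 700 bases, made up 10.9% of its sleep-deprived TPM, and Tgfb1-201 alone was at 1.94. At 1.5-fold, 2 were called higher (Tgfb1 and Tgfbr2; 12.5% of all measured genes) and 2 lower (Tgfb2 and Ski; 13.6%), and of the other pathway genes 11 were higher and 10 lower. The median log2 ratio of the 10 genes was 0.29 with the length offset, 0.29 with coding transcripts only and 0.51 by summed TPM, where the median over all measured genes was 0.22; it was 0.10 to 0.13 with each file left out. Other pathway genes called higher numbered 2 with the length offset (Fbn2 added, at 5.70) and 2 with coding transcripts only (Fn1 added, at 2.20, while it was called lower at 0.494 with the length offset). Those called lower numbered 5 with the length offset (Fn1 added), with coding transcripts only (Ltbp3 added), without the filter (Bmp3 added) and without sleep-deprived file 1 (Bambi added). The share difference of Ski-203 was −10.2 percentage points, −8.61 as a share of TPM, and −9.87 to −10.5 with each file left out. The causes were not tested.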
